A study of Rattus norvegicus with 9 samples.

Results

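Th, Ddc and Dbh encode the enzymes that turn tyrosine into dopamine and noradrenaline, and they were followed in RNA sequencing libraries of PC12 cells. They are 3 of the 23426 features listed for each of the 9 libraries. They were chosen by identifier and not by a measured value: ENSRNOG00000020410 for Th, ENSRNOG00000004327 for Ddc and ENSRNOG00000006641 for Dbh. The files pair no identifier with a symbol, and 0 of the 23426 identifiers occur in the RefSeq gene table used here, so the 3 symbols came with the choice of members and could not be checked. PC12 is a line derived from a rat pheochromocytoma, a tumour of the adrenal medulla, and the labels call it a differentiated chromaffin line. All groups were differentiated in culture. The 3 control libraries had no further treatment. The 3 OGD/R libraries came from cells kept for 4 h without glucose at 1% oxygen (oxygen-glucose deprivation) and then reoxygenated in normal medium for 6 h. The 3 mimic libraries came from cells transfected with miR-483-5p mimics 48 h before the same OGD/R treatment. The labels mention transfection for the mimic libraries alone and name no negative-control mimic in the OGD/R libraries. All libraries come from a single cell line, and the labels do not say that replicates were separate cultures, so the p-values measure the spread between these libraries, which may be technical.

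Catecholamines are made in a fixed order. Tyrosine hydroxylase, the product of Th, converts tyrosine to L-DOPA and is the rate-limiting enzyme of the pathway. Aromatic L-amino acid decarboxylase, the product of Ddc, removes the carboxyl group of L-DOPA to give dopamine and also makes serotonin from its precursor. Dopamine beta-hydroxylase, the product of Dbh, works inside secretory vesicles, where it turns dopamine into noradrenaline. PC12 cells are widely used because they make, store and release dopamine and noradrenaline, and tyrosine hydroxylase is one of their usual markers.

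The sequences of the miRNA and of the start regions of Th and Dbh are shown because they define the treatment and the genes with most of the values above 0. They were copied from RefSeq tables of the GRCr8 build, in which all 3 genes were found by symbol. The genome build behind the deposited values is not given in the sources used here. rno-miR-483-5p lies at chr1:207247903-207247924 on the minus strand, and its seed, bases 2 to 8, is in capitals. The labels do not say whether the mimics carried the rat sequence. In the same RefSeq annotation the miRNA lies within Igf2, on the same chromosome as Th and with Ins2 between them. Each promoter window spans the annotated start and lies mostly before it. That of Th is chr1:207508169-207508468 on the minus strand, and that of Dbh is chr3:30886078-30886377 on the plus strand. Capitals there mark matches on either strand to the cAMP response element TGACGTCA, its core TGACG, the AP-1 motif TGANTCA, the hypoxia response core ACGTG or the Sp1 motif GGGCGG.
rno-miR-483-5p: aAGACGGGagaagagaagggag
Th promoter: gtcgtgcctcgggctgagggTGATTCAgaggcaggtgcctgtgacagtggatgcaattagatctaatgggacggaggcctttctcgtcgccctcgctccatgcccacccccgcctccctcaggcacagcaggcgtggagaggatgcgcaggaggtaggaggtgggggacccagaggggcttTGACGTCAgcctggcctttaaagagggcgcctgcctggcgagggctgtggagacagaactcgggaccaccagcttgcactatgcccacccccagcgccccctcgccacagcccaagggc
Dbh promoter: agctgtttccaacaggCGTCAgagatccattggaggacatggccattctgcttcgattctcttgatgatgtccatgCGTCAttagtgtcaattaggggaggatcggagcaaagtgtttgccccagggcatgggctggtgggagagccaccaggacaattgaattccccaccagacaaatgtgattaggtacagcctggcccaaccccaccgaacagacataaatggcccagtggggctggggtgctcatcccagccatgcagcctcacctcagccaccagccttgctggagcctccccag

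The Th window holds the cAMP response element, whose first base lies at position -69 from the start, and it also holds 1 AP-1 match at -230. The full element occurs in 1.83% of the 33469 promoter windows of the table and the AP-1 motif in 7.33%. The Dbh window holds the core of the element 2 times, at -234 and -174, both on the opposite strand. That core, which the full element contains on both strands, occurs in 21.2% of windows. Ddc has 3 annotated start regions, of which 1 holds an AP-1 match, at -163, and none holds the element or its core. The hypoxia response core, in 19.3% of windows, and the Sp1 motif, in 33.1%, matched no window of the 3 genes. The E-box CANNTG, in 72.1% of windows, matched all 5. These matches describe the letters in the windows and were not measured as binding sites.

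The libraries held many expressed genes: 11527 to 11789 features per library had at least 1 FPKM (fragments per kilobase of gene, scaled to the mapped fragments of the library), and the highest feature reached 6038 to 7880 FPKM. Between 15792 and 16017 features were above 0 in a control library. The range was 16506 to 17149 in the OGD/R group, and the mimic group had 16820 to 17242. Read counts were not used here, so the total depth is unknown. Over the 11798 features whose mean reached 1 FPKM, OGD/R replicate 3 correlated more with mimic replicates 1 and 2 (Pearson's r of 0.984 and 0.984) than with OGD/R replicates 1 and 2 (0.978 and 0.968). Mimic replicate 3 correlated with OGD/R replicates 1 and 2 at 0.985 and 0.982, and with mimic replicates 1 and 2 at 0.982 and 0.981. These correlations run across genes, which are no independent replicates, and describe the libraries. Because OGD/R replicate 3 stands nearer to the mimic group than to its own, the results below are also given without both libraries numbered 3, and a comparison of the 6 libraries exposed to OGD/R with the 3 controls was made. That difference gives both treated groups equal weight and stays the same if those libraries change places, but its standard error and p come from the 3-group fit and depend on their labels.

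All 3 enzyme genes were at trace levels in every library, with no value above 0.18 FPKM. The label of a chromaffin line was therefore not borne out by these 3 identifiers, which stand for defining genes of that cell type. The median of the features above 0 lay between 5.21 and 9.01 FPKM in the 9 libraries, so each enzyme gene was far below the middle of its own library. Whether the cells, the annotation used for the counting or the pairing of identifiers with symbols accounts for the low values was not tested. In bulk RNA, fewer cells that express a gene and less RNA per cell cannot be told apart.

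Th, the rate-limiting step, was listed at 0.05, 0 and 0.07 FPKM in control replicates 1, 2 and 3. The OGD/R replicates read 0.05, 0.14 and 0.13 FPKM, and the mimic replicates 0.18, 0.09 and 0.05 FPKM. The control mean was 0.0400 ± 0.0361 FPKM, the OGD/R mean 0.107 ± 0.0493 FPKM and the mimic mean 0.107 ± 0.0666 FPKM (SD, n = 3 each). Thus 8 of the 9 libraries were above 0, the OGD/R and mimic means were equal, and each treated group overlapped the controls through 1 library at 0.05 FPKM. In the library where Th ranked lowest, 68.3% of all listed features were higher.

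Ddc, the second step, was listed at 0 in 7 of the 9 libraries. Its values were 0 in control replicates 1, 2 and 3, and 0, 0.02 and 0 FPKM in OGD/R replicates 1, 2 and 3. With mimics they were 0, 0 and 0.02 FPKM. The gene was the lowest of the 3, and 96.0% of the 19394 features above 0 in at least 1 library had a higher mean. No fold change is given for Ddc, because all controls are listed at 0.

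Dbh, the vesicular step, was above 0 in all 9 libraries. The control replicates read 0.08, 0.04 and 0.07 FPKM, the OGD/R replicates 0.09, 0.13 and 0.15 FPKM, and the mimic replicates 0.11, 0.15 and 0.12 FPKM. The control mean was 0.0633 ± 0.0208 FPKM, the OGD/R mean 0.123 ± 0.0306 FPKM and the mimic mean 0.127 ± 0.0208 FPKM (SD, n = 3 each). All 6 libraries exposed to OGD/R lay above all 3 controls, but the gap between the highest control and the lowest OGD/R library was a single step of the 2-decimal scale, from 0.08 to 0.09 FPKM. OGD/R and mimic libraries overlapped.

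**Figure D1:**
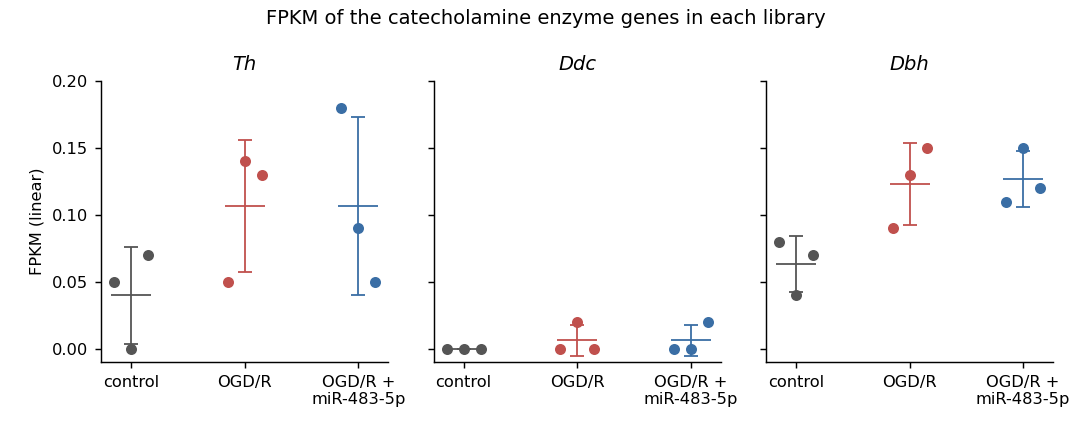
FPKM (linear axis) of Th, Ddc and Dbh in the 3 libraries of each group, in the order of replicates 1 to 3 from left to right, with bars for the mean and the SD. No point exceeds 0.18 FPKM, Ddc is at 0 in 7 of 9 libraries, and the Dbh points of both treated groups lie above those of the controls.

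By the mean over the 9 libraries, Dbh (0.104 FPKM) and Th (0.0844 FPKM) stood close together, and Ddc (0.00444 FPKM) stood below both. The values of Dbh and Th overlapped in each group, so their order is within the spread between libraries. Among the 19394 features above 0 in at least 1 library, 76.8% had a higher mean than Dbh and 78.2% a higher mean than Th. Since FPKM is scaled to gene length, these levels can be set beside each other, within the coarse steps of the 2 decimals.

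**Figure D2:**
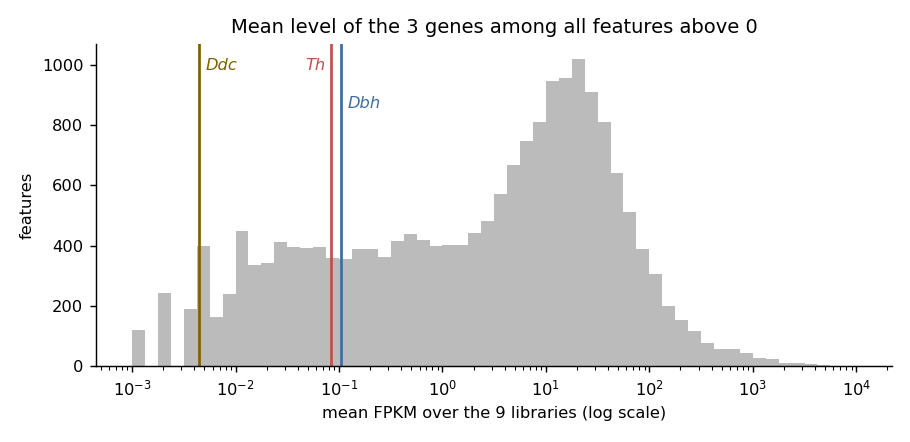
Number of features by mean FPKM over the 9 libraries (log scale), for features above 0, with vertical lines at the means of Ddc (0.00444), Th (0.0844) and Dbh (0.104). All 3 lines lie far to the left of the main peak of expressed features.

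The first comparison asks what OGD/R did to the 3 genes. Neither Th nor Dbh passed the test in the 3 OGD/R against the 3 control libraries. On the log2(FPKM + 0.1) scale, which understates the change of genes as low as these, Dbh was higher by 0.45 (standard error 0.18, 95% interval 0.033 to 0.87, adjusted p = 0.0753 from limma). Th was higher by 0.57 (standard error 0.31, 95% interval -0.13 to 1.26, adjusted p = 0.170 from limma). Ddc also missed the threshold (adjusted p = 0.619 from limma), but with 7 of its 9 values at 0 this test says little. Thus 0 of the 3 genes were called, where 46.0% of all 19394 features tested were, and 23.8% of the 1845 features with a mean of 0.05 to 0.2 FPKM, a range around Th and Dbh chosen after the values of the 3 genes were seen. The scaling between libraries moved these values. Dbh was called at 0.56 after upper-quartile scaling (adjusted p = 0.0449 from limma), while quantile normalization gave 0.15 for Dbh (adjusted p = 0.510) and 0.35 for Th (adjusted p = 0.416). The libraries did not overlap for Dbh alone among the 3, with OGD/R higher. That pattern was seen in 19.4% of the features tested and in 18.4% of those of 0.05 to 0.2 FPKM. Without both libraries numbered 3, the log2 difference was 0.36 for Dbh (adjusted p = 0.188 from limma) and 0.47 for Th (adjusted p = 0.305 from limma). Without control replicate 2, the library with Th at 0, the Th difference was 0.34 (adjusted p = 0.450 from limma).

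The mimic libraries were also set against the controls, which this comparison shares with the first. Dbh was higher by 0.48 (standard error 0.18, adjusted p = 0.0577 from limma) and Th by 0.55 (standard error 0.31, adjusted p = 0.175 from limma), while Ddc had an adjusted p of 0.608. Again 0 of the 3 genes were called, against 49.6% of all features and 30.8% of those of 0.05 to 0.2 FPKM. The libraries did not overlap for Dbh alone, with mimics higher, as in 22.5% of all features and 27.4% of those of 0.05 to 0.2 FPKM. Dbh was called at 0.62 after upper-quartile scaling (adjusted p = 0.0259 from limma) and at 0.083 with a pseudocount of 1 (adjusted p = 0.0416). Quantile normalization gave 0.024 for Dbh (adjusted p = 0.940) and 0.19 for Th (adjusted p = 0.667). Without both libraries numbered 3, Dbh was higher by 0.50 (adjusted p = 0.0758 from limma) and Th by 0.76 (adjusted p = 0.104 from limma). The Th difference was 0.32 without control replicate 2 and 0.31 without mimic replicate 1.

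Dbh was called higher when the 6 libraries exposed to OGD/R were pooled, as the mean of their group means minus the control mean. The mean FPKM of Dbh was 1.97 times that of the controls, 0.125 ± 0.0235 (SD, n = 6) against 0.0633 ± 0.0208 FPKM (SD, n = 3). The log2 difference was 0.46 (standard error 0.16, 95% interval 0.10 to 0.82, adjusted p = 0.0353 from limma). Th was higher by 0.56 without passing the test (standard error 0.27, 95% interval -0.046 to 1.16, adjusted p = 0.112 from limma), and Ddc had an adjusted p of 0.546. The Th difference was 0.33 without control replicate 2 (adjusted p = 0.391 from limma). So 1 of the 3 genes was called, where 52.5% of all features and 34.4% of those of 0.05 to 0.2 FPKM were, and Dbh was the 1 gene of the 3 without overlap and with higher treated libraries, as in 16.9% of features. The call was kept under 6 of 17 alternatives, among them upper-quartile scaling (log2 difference 0.59, adjusted p = 0.0164 from limma), a pseudocount of 1 (adjusted p = 0.0248) and scaling to the same sum (adjusted p = 0.0386). It was lost under the other 11. Leaving out 1 library kept the log2 difference between 0.36 and 0.54, but leaving out any of 6 of the 9 libraries (control replicates 1, 2 and 3, OGD/R replicates 2 and 3, mimic replicate 2) gave adjusted p-values of 0.0511 to 0.151, and leaving out both libraries numbered 3 gave 0.0663. With a block for the replicate number the difference was 0.46 and the adjusted p 0.0713, and after quantile normalization the log2 difference was 0.087 (adjusted p = 0.650), with Th at 0.27 (adjusted p = 0.459).

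Among features at the level of Th and Dbh, more were called higher than lower after OGD/R, and most were not called. Of the 1845 features with a mean of 0.05 to 0.2 FPKM, 34.4% were called in the 6 treated against the 3 control libraries, 424 higher and 210 lower. This range rests on the mean over all libraries, treated ones included, and the counts on values without further scaling. Their median log2 difference was 0.32, against -0.050 over all features tested, and 14.4% of them had all treated libraries above all controls. The number of features above 0 was also larger in each treated library than in each control. Whether these shifts among low values have a part in the Dbh difference was not tested.

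**Figure D3:**
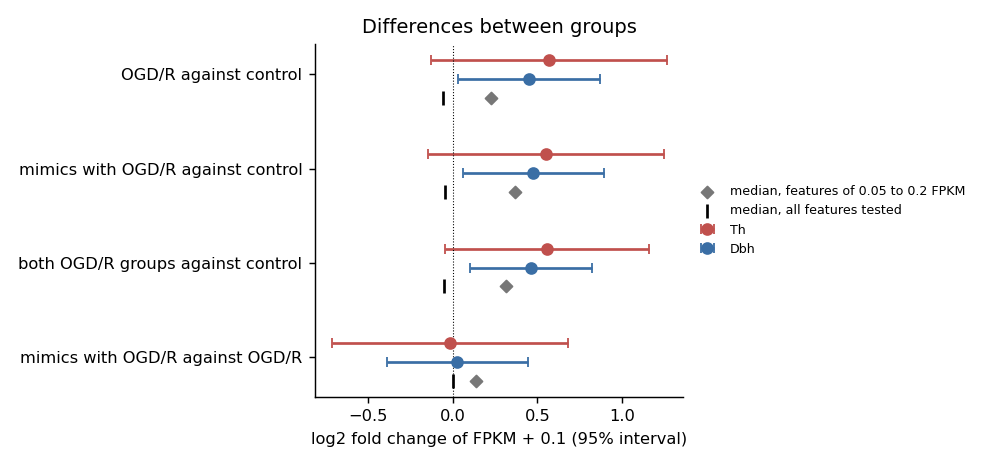
Log2 fold changes of FPKM + 0.1 for Th and Dbh in the 4 comparisons, with 95% intervals from limma, beside the median of the 1845 features of 0.05 to 0.2 FPKM (diamonds) and of all features tested (bars). Both genes lie to the right of the medians in the 3 comparisons with control, with wide intervals, and near 0 between mimics and OGD/R.

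The comparison of mimics with OGD/R covers cells that went through the same deprivation. Since the labels mention transfection for the mimic libraries alone, an effect of the miRNA and one of transfection cannot be told apart. No difference was detectable in any of the 3 genes. Dbh differed by 0.027 on the log2 scale (standard error 0.18, 95% interval -0.39 to 0.44, adjusted p = 0.996 from limma). Th differed by -0.018 (standard error 0.31, 95% interval -0.71 to 0.68, adjusted p = 1 from limma). For Ddc each group had 1 library at 0.02 FPKM and 2 at 0, so the means were equal. These intervals are wide, and they do not show that the groups were alike. None of the 3 genes was called, and the share of all features called was 0% by limma, with 1333 features at an unadjusted p under 0.05. Without both libraries numbered 3, the log2 difference was 0.28 for Th (adjusted p = 0.677 from limma) and 0.13 for Dbh (adjusted p = 0.75 from limma). In that setting 823 of all features were called. Those libraries were chosen by their likeness to the other group in the same values. A larger number of calls without them is therefore in part built in and is not read as an effect.

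The balance between the enzymes was examined as the ratio of Th to Dbh within a library, which does not depend on the scaling between libraries. The ratio could be formed in the 8 libraries where Th was above 0, and ratios with Ddc were not formed. On the log2 scale it was -0.68 and 0 in control replicates 1 and 3. It was -0.85, 0.11 and -0.21 in the OGD/R libraries, and 0.71, -0.74 and -1.26 in the mimic libraries. In control replicate 2, with Th listed at 0 and Dbh at 0.04 FPKM, the log2 ratio is not defined, so the control with the lowest Th is missing from the comparisons with control. The ratios spread widely within each group, and the treated groups overlapped. The mean log2 ratio was -0.34 for the control, -0.32 for the OGD/R and -0.43 for the mimic libraries, and none of 3 comparisons passed a two-sided exact permutation test (p = 1 for OGD/R against control, p = 1 for mimics against OGD/R and p = 0.929 for the 6 treated libraries against the controls, each 1 after adjustment over the 3). The smallest p these permutation tests could give with so few ratios was 0.2, 0.1 and 0.0714 in the same order, so none of them could have passed the threshold.

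The features whose values followed Dbh and Th most closely are given as a description. Of the 11798 candidates, all features whose mean reached 1 FPKM, ENSRNOG00000060853 had the highest Pearson correlation with Dbh over the 9 libraries (r = 0.94 on the log2 scale). Its control replicates read 0.43, 0.22 and 0.42 FPKM, its OGD/R replicates 1.35, 1.57 and 2.58 FPKM, and its mimic replicates 1.25, 1.98 and 1.09 FPKM. All its controls were under 1 FPKM, so it passed the filter on the mean through the treated libraries, and its likeness to Dbh is what it was chosen for. ENSRNOG00000025174 was the nearest to Th (r = 0.93) and ranged only from 19.86 to 22.98 FPKM. The points share their libraries and the division into 3 groups, and the best of many features is high by selection. These identifiers have no symbol here.

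**Figure D4:**
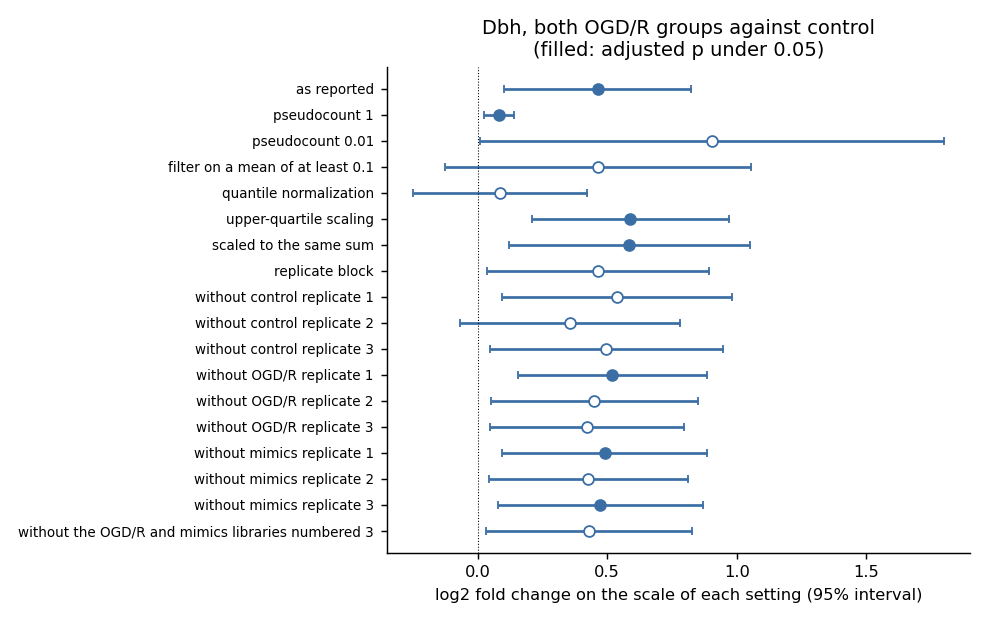
Log2 fold change of Dbh in the 6 libraries exposed to OGD/R against the 3 controls under each processing setting, with 95% intervals; filled points have an adjusted p under 0.05. The value as reported is 0.46, all points lie to the right of 0, and 11 of the 17 alternatives have open points.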

How the data were processed

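The authors cleaned the reads of adapters, poly-N and low-quality sequence and quantified genes with RSEM. The deposited values are FPKM, 1 for each gene in each library, with 2 decimals. The submitters' processing notes also name Bowtie2 2.3.3.1 and Cufflinks 2.2.1, without their role. FPKM are not counts, so log2(FPKM + 0.1) was compared with limma 3.58.1 (R 4.3.3; lmFit, eBayes with trend, two-sided) in 1 fit of the 3 groups, with 6 residual degrees of freedom. P-values were adjusted by Benjamini-Hochberg over 19394 features, all those not at 0 in every library, and an adjusted p under 0.05 was called. Ratios were tested with exact permutation tests (scipy 1.17.1).

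The members, lists and alternatives were chosen with earlier results of these data known. The named features were the 3 genes, other pathway and marker genes by symbol, and the feature nearest to each gene among those whose mean reached 1 FPKM. The pathway and marker lists were not analysed here, because no table pairs the identifiers with symbols, and for the same reason only 2 nearest features are named; that of Ddc, above 0 in 2 libraries, is left out. Target sites of the miRNA were not looked for here. The labels name 2 library kits without assigning libraries to them, and 1 detail of the cell culture is left out of the text. Alternatives were other pseudocounts, filters and scalings, fits of the compared groups alone, a replicate block and leaving out libraries.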

Additional observations from a re-analysis of the deposited data

How the results depend on the processing

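Steps of 0.01 FPKM and an unknown depth limit these results. The filter on a mean of 1 FPKM left none of the 3 to test, and that on 0.1 left only Dbh. Against control, Th and Dbh were higher under every alternative that gave a value, and Th and Ddc were never called. For Ddc, with 7 of 9 values at 0, that says little. The cause of the changes below was not tested.

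Dbh in the 6 treated libraries against control lost its call under 11 of 17 alternatives. The log2 difference was 0.91 with a pseudocount of 0.01 (limma, adjusted p = 0.0843), 0.46 with the filter on 0.1 (adjusted p = 0.146), 0.087 after quantile normalization (adjusted p = 0.650) and 0.43 without both libraries numbered 3 (adjusted p = 0.0663). With the replicate block it was 0.46 (adjusted p = 0.0713). It ranged from 0.36 to 0.54 with 1 library left out. With upper-quartile scaling Dbh became called in OGD/R against control at 0.56 (limma, adjusted p = 0.0449) and in mimics against control at 0.62 (adjusted p = 0.0259), the latter also with a pseudocount of 1 at 0.083 (adjusted p = 0.0416). Quantile normalization took these to 0.15 and 0.024. Th against control ranged from 0.089 with a pseudocount of 1 to 1.57 with 0.01 after OGD/R.

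Between mimics and OGD/R the differences of Th and Dbh changed sign without being called. Th was at 0.021 after upper-quartile scaling, 0.28 without both libraries numbered 3, and -0.26 to 0.19 with 1 library left out. Dbh was at -0.13 after quantile normalization and -0.085 to 0.11 with 1 library left out. Features called in this comparison numbered 9 with a pseudocount of 0.01, 5 after scaling to the same sum, 823 without both libraries numbered 3 and 0 to 11 with 1 library left out. The log2 ratio of Th to Dbh for OGD/R against control was -0.032 without both libraries numbered 3, -0.19 with the replicate block and -0.32 to 0.36 with 1 library left out. For mimics against OGD/R it was 0.36 without both and -0.68 to 0.30 with 1 left out. For the 6 treated libraries it was 0.0076 with a pseudocount of 1, which also brings in control replicate 2, 0.15 without both and -0.37 to 0.31 with 1 left out.

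Replicate pairing cannot be judged from 3 libraries per group. Deviations from the group mean correlated at -0.17, -0.26 and -0.47 between same-numbered mimic and OGD/R libraries. OGD/R and control gave -0.031 to 0.047, mimics and control 0.0042 to 0.22. The block changed no other call of the 3 genes. In the 6 treated libraries against control, upper-quartile scaling moved the median log2 difference of all features from -0.050 to 0.095 and the higher share of the calls from 37.1% to 55.7%; quantile normalization gave 44.6%.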
